A study of Mus musculus with 13 samples.

Results

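Genes that build cholesterol and fatty acids, with the factors that control them, were read in mouse Th17 cells of 2 genotypes. The list holds 35 genes, matched by symbol to the mouse Ensembl gene IDs of the deposited count table, and all 35 were found among its 56941 genes and passed the filter on low counts, as did 14681 genes in all. Th17 cells are a class of helper T cell, known for secreting IL-17. Here they were grown from naive CD4+ T cells of the spleen, activated and held for 72 hours under Th17-polarizing conditions. One group had the genotype Chaf1bWT (WT, 3 libraries) and the other Chaf1bfl/fl;Il17fCre+ (KO, 3 libraries), in which the Cre recombinase is placed under Il17f, so that recombination depends on cells that switch on that locus. All 6 libraries shared the tissue, the culture and its length. Whether WT cells carry the Cre is not in their label, and no library with the Cre alone was analysed here. Neither age nor strain of the mice is given in the sources used here. The labels call the libraries of a genotype biological replicates, and nothing ties each to a separate animal, so a p-value here reflects library-to-library spread, which may be technical.

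Cells make cholesterol from acetyl-CoA through mevalonate, isoprenoid units, squalene and lanosterol, and fatty acids from the same acetyl-CoA through malonyl-CoA. The SREBP factors switch on both routes. They are held in the endoplasmic reticulum by SCAP together with INSIG proteins while sterols are plentiful, and are released for cleavage when sterols run low. SREBP2, from Srebf2, acts mainly on sterol genes, and SREBP1, from Srebf1, mainly on fatty acid genes. The LXR receptors act on the opposite side: they bind oxysterols and switch on cholesterol efflux genes, and also Srebf1.

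The libraries held 35708879 to 45232055 counts. Chaf1b, the targeted gene, was at 13.2, 11.4 and 11.5 CPM (counts scaled to the TMM-adjusted library size) in WT and at 16.3, 14.9 and 13.5 CPM in KO (log2 fold change 0.31 ± 0.11 SE, adjusted p = 0.130). Each adjusted p is from the quasi-likelihood fit of edgeR, adjusted by Benjamini-Hochberg over all genes tested, and each ± beside a log2 fold change is its SE. It was therefore not lower in the KO libraries, and since the counts sum all exons and no source used here gives the deleted part, this value does not check the genotype. The groups are called by their labels, and each direction below rests on those labels. The markers of the labelled cell type were present: Cd4 lay between 259 and 342 CPM in WT and between 217 and 235 CPM in KO (log2 fold change -0.36 ± 0.09, adjusted p = 0.0504), and the 7 summed CD4 T cell and Th17 markers between 482 and 706 CPM and between 403 and 427 CPM. Il17a ran from 43.1 to 104 CPM in WT and from 8.44 to 9.89 CPM in KO. The 7 did not all go the same way. Cd3g had a mean of 63.6 CPM in WT and 78.1 CPM in KO (0.30 ± 0.09, adjusted p = 0.0780). Cd3e overlapped between the groups, at 78.3 and 74.7 CPM (-0.07 ± 0.07, adjusted p = 0.640). Summed markers of gamma delta T cells lay between 51.0 and 63.0 CPM in WT and between 96.0 and 101 CPM in KO, and 4 of the 6 passed as higher. The rest, Blk and Sox13, had estimates below 0 at low counts and did not pass. Blk had a mean of 0.334 CPM in WT and 0.0904 CPM in KO, with the groups apart (-1.85 ± 0.73, adjusted p = 0.174). Sox13 overlapped between the groups, at 0.547 and 0.420 CPM (-0.38 ± 0.47, adjusted p = 0.704). Summed myeloid markers lay between 2.44 and 2.84 CPM and between 6.27 and 7.89 CPM, mainly through Fcer1g, and summed NK cell markers between 3.26 and 5.31 CPM and between 6.52 and 9.40 CPM, nearly all of it Gzma (mean 4.54 CPM in WT and 7.70 CPM in KO), with Ncr1, Klrb1c and Klra8 at 0 counts in all 6 libraries. Of the B cell markers Cd79b was higher (mean 2.84 and 4.75 CPM) and Ebf1 lower (mean 15.6 and 9.85 CPM). The part of other cells in the results below was not tested, and in these bulk libraries a change in the number of cells of a type cannot be told apart from a change in RNA per cell.

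The promoters show what the sterol genes share apart from their place in the route. RefSeq promoter windows (GRCm38.p6, 250 bases before to 50 bases after a gene start) were given for 27 of the 35 genes. None was given for Fdps, Fdft1, Sqle, Stard4, Scd1, Scd2, Fads1 and Abcg1. Of 16 SREBP sterol genes with a window, 15 held CCAAT, the box bound by NF-Y, a factor that works beside SREBP at sterol promoters (93.8%, both strands), against 43.1% of 9965 tested genes and 41.1% of all 27025 genes in the table. In 13 of the 16 a CCAAT lay within 100 bases before the start (81.2%, against 26.4% of tested genes). The 5 SREBP fatty acid genes with a window held CCAAT in 2 cases, Acly and Fasn. The Sp1 box GGGCGG was found in 15 of the 16 sterol genes and in 68.3% of tested genes. The E-box CACGTG was found in 4 of the 16, namely Dhcr7, Hsd17b7, Insig1 and Sc5d, against 11.8% of tested genes. The sterol regulatory element, searched as TCACNCCAC on both strands, was found in Hmgcs1 alone among the 27, against 1.39% of tested genes. The only overlap between matches in these windows was a pair of CCAAT matches on opposite strands in Fasn. A match is a description of the letters and not a site of binding, and a window without one may hold other forms.

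Below are the 250 bases before the start of 4 genes, 5′ to 3′ on the strand of the gene, with CCAAT on either strand and the sterol regulatory element in capitals. Hmgcs1 is shown for its sterol element and Cyp51 as the sterol enzyme past the threshold. Insig1 is shown as a gene of the SREBP control that is itself an SREBP target, and Fads2 as the fatty acid gene past the threshold. They lie at chr13:119690101-119690350 (+ strand), chr5:4104698-4104947 (- strand), chr5:28071162-28071411 (+ strand) and chr19:10101504-10101753 (- strand) in GRCm38.p6.
Hmgcs1: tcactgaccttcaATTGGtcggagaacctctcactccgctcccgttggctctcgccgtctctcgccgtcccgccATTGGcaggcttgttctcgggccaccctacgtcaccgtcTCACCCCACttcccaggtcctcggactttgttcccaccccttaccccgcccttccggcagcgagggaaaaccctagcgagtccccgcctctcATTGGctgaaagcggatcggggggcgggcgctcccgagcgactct
Cyp51: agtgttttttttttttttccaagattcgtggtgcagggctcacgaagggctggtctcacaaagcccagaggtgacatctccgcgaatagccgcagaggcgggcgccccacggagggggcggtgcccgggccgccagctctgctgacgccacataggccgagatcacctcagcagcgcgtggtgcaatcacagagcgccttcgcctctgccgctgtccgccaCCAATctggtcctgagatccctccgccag
Insig1: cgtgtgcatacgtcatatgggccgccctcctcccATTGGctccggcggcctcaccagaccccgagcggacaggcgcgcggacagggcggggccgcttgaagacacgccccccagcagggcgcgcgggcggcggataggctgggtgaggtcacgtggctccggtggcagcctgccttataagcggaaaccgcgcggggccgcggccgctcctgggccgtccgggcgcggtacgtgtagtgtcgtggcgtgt
Fads2: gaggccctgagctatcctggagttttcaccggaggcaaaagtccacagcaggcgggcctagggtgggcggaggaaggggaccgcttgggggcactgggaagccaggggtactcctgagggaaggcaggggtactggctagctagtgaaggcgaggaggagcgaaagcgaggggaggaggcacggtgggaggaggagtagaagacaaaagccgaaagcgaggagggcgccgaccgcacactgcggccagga

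Hmgcs1 held 3 CCAAT matches in this stretch, placed around the sterol element, and Cyp51 and Insig1 held 1 each. Fads2 held none.

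**Figure D1:**
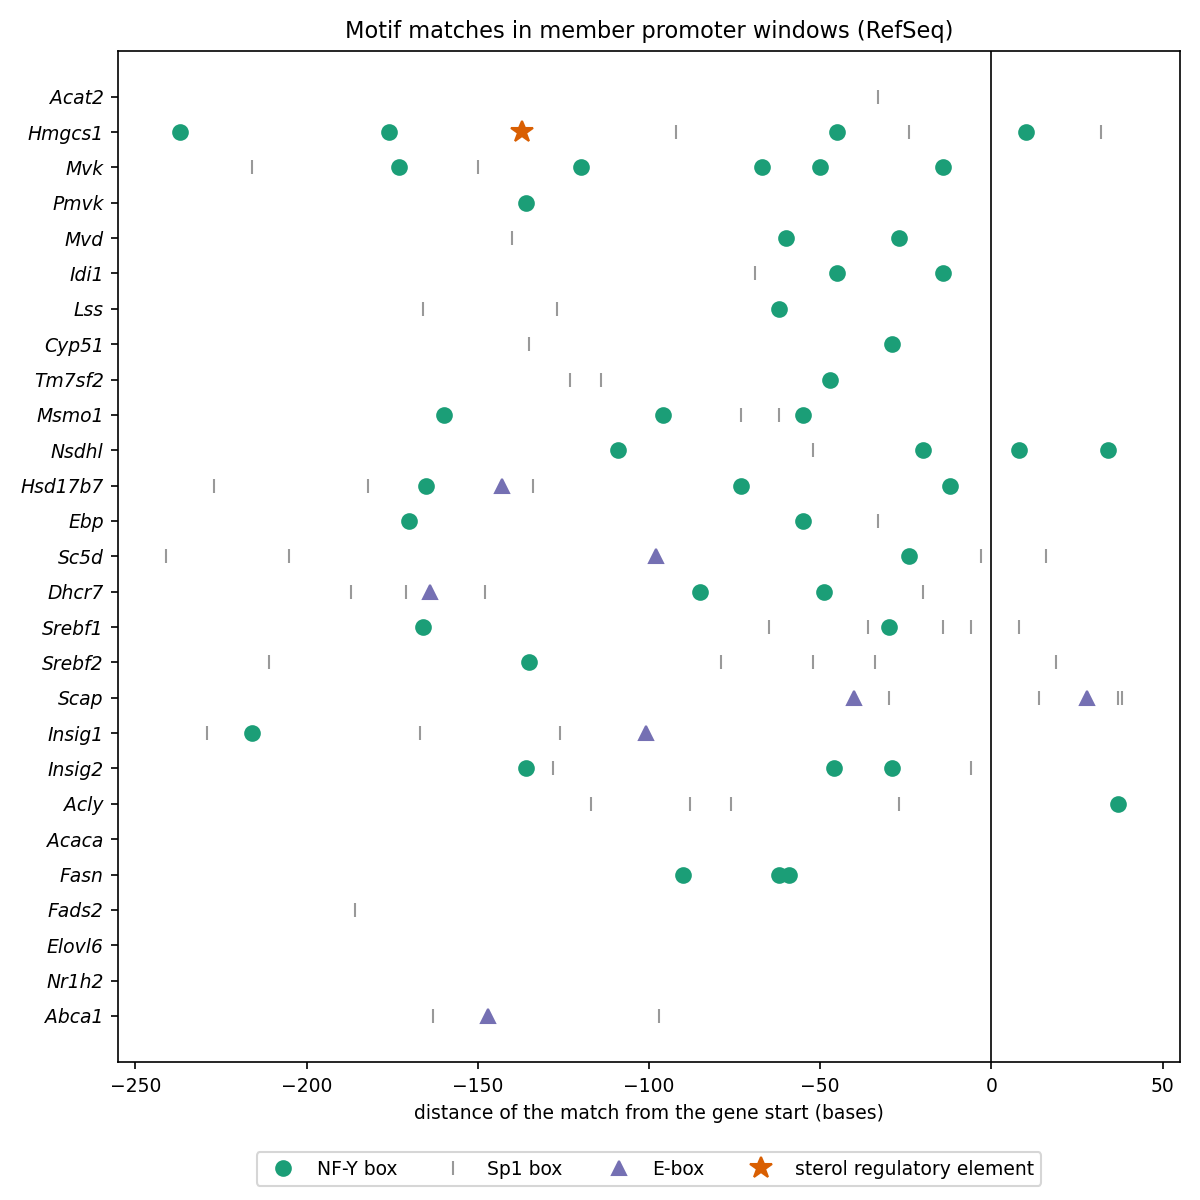
Motif matches in the RefSeq promoter windows of 27 of the 35 genes, by distance in bases from the gene start (vertical line; genes with several starts have each window drawn on the same line). Circles are CCAAT, bars GGGCGG, triangles CACGTG and the star TCACNCCAC, on either strand. CCAAT stands in every sterol enzyme drawn but Acat2.

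Few of the 35 genes passed the threshold, and those that did were higher in the KO libraries. Cyp51, Stard4 and Fads2 rose, by 1.26-fold, 1.22-fold and 2.12-fold, and none fell. These are 3 of 35 (8.57%), against 6.39% of all genes tested (3.92% as higher, 2.47% as lower), which is near the background. The median log2 fold change was 0.08 over the 35 genes and -0.01 over all genes tested. All 3 KO values stood clear of all 3 WT values in 12 genes as higher and in 2 as lower, against 14.4% and 12.4% of all genes tested. Of the 12, 10 were among the 20 sterol genes under SREBP and 2, Fads1 and Fads2, among the 8 fatty acid genes under SREBP. These genes share their control and are not independent of each other. The median 95% interval of a log2 fold change reached 0.17 to either side of the estimate, and the widest, that of Scd1, 0.74.

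**Figure D2:**
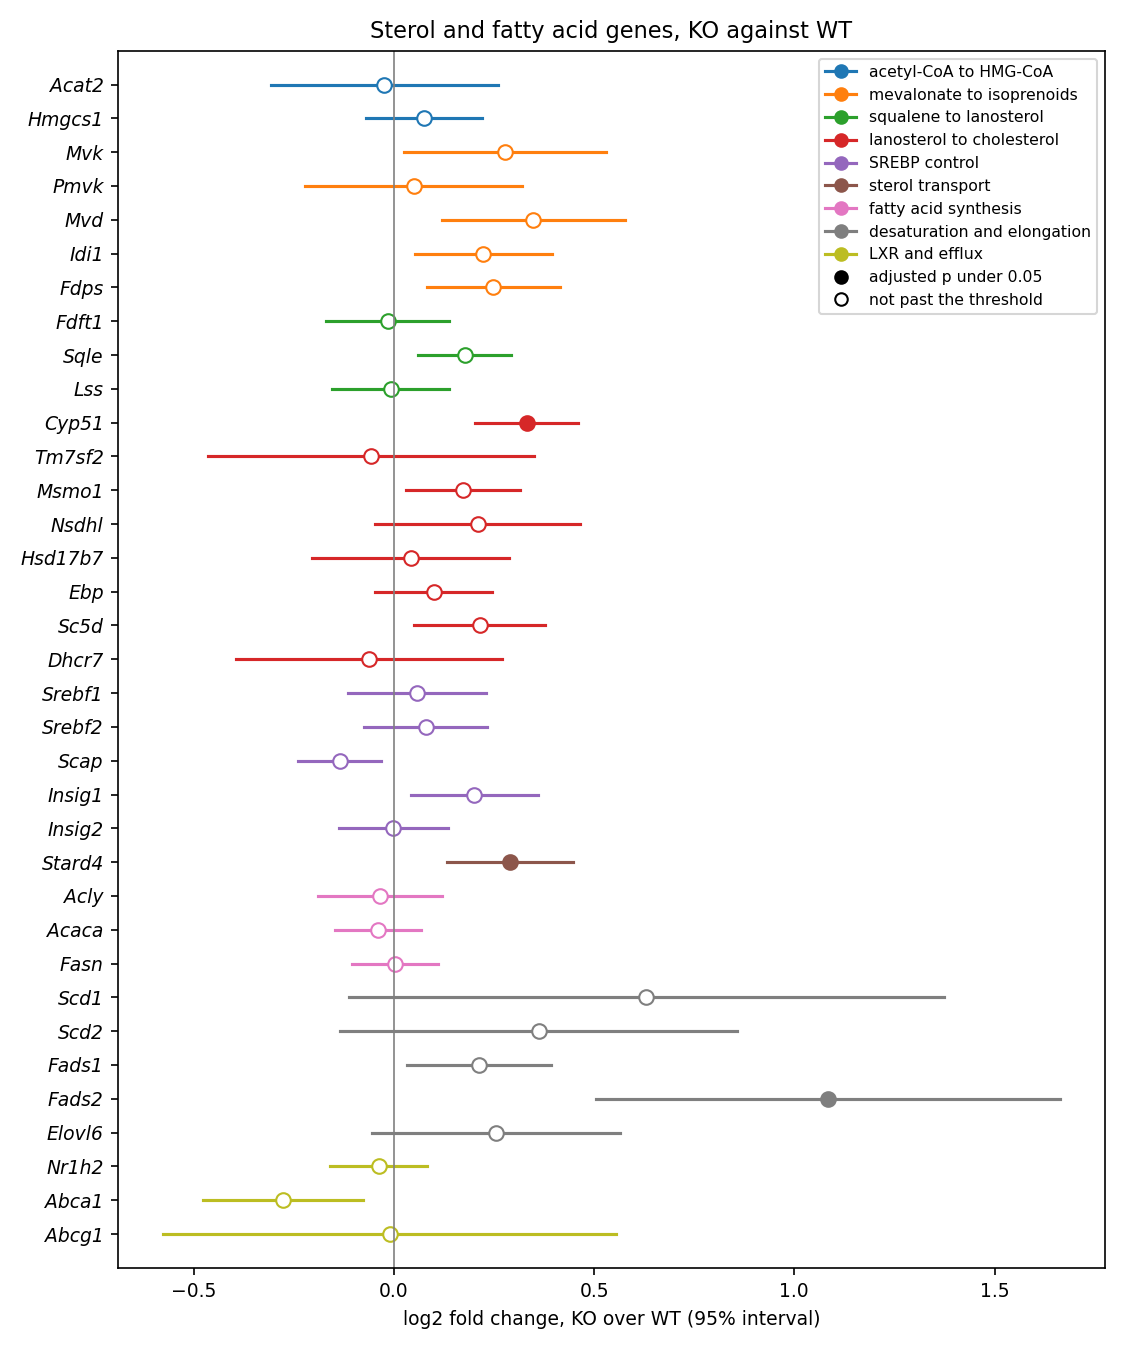
Log2 fold change of the 35 genes, KO over WT, with the 95% interval from the edgeR fit on 3 libraries a group, coloured by pathway step. Filled points (Cyp51, Stard4, Fads2) passed an adjusted p of 0.05. The 5 genes from mevalonate to isoprenoids and the 5 of desaturation and elongation all have estimates above 0, and the 3 fatty acid synthesis genes lie close to 0.

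The first enzymes of the sterol route did not pass the threshold. Hmgcs1, the synthase that makes HMG-CoA, was at 39.9, 43.0 and 44.9 CPM in WT and at 44.5, 44.8 and 45.5 CPM in KO (log2 fold change 0.08 ± 0.07, 95% interval -0.07 to 0.22, adjusted p = 0.567). The groups overlapped, with WT replicate 3 inside the KO range. Acat2, the thiolase that joins acetyl-CoA units in the cytosol, averaged 9.54 ± 1.04 CPM in WT (SD, n = 3, as for each mean below) and 9.39 ± 1.09 CPM in KO, with an adjusted p of 0.941. Mouse Acat2 has a close relative, Acat3, and reads that fit both may be missing from the count.

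Among the 5 enzymes from mevalonate to isoprenoids the KO libraries lay above the WT libraries in 4, as in 14.4% of all genes tested. None of the 5 passed the threshold. Mvd, the decarboxylase that makes isopentenyl diphosphate, was at 25.5, 24.2 and 19.5 CPM in WT and at 31.6, 28.3 and 28.2 CPM in KO (0.35 ± 0.10, 95% interval 0.12 to 0.58, adjusted p = 0.0749). Every KO value stood above every WT value, and WT replicate 3 was the lowest. Fdps, which makes farnesyl diphosphate, the branch point to sterols and protein prenylation, was at 53.1, 45.6 and 44.2 CPM in WT and at 58.4, 56.8 and 54.6 CPM in KO (0.25 ± 0.08, adjusted p = 0.0805). Here WT replicate 1 came close to the KO libraries. Idi1, the isomerase of the isoprenoid unit and the gene with the highest count of this step, was at 60.4, 71.9 and 73.9 CPM in WT and at 79.2, 84.7 and 76.7 CPM in KO (0.22 ± 0.08, adjusted p = 0.123), with WT replicate 1 the lowest. Mvk, the mevalonate kinase, lay between 7.43 and 8.48 CPM in WT and between 9.26 and 10.1 CPM in KO (0.28 ± 0.11, adjusted p = 0.189). Pmvk, the next kinase, overlapped at 13.3 ± 1.67 and 13.8 ± 1.6 CPM (adjusted p = 0.867). Summed over the 5 genes the step held 163, 161 and 158 CPM in WT and 191, 195 and 183 CPM in KO, a ratio of means of 1.18.

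From squalene to lanosterol the values differed by enzyme. Sqle, the epoxidase that adds oxygen to squalene, was at 63.3, 62.6 and 65.5 CPM in WT and at 72.8, 70.9 and 72.6 CPM in KO (0.18 ± 0.05, 95% interval 0.06 to 0.29, adjusted p = 0.0784). Both groups were tight and apart. Fdft1, the squalene synthase, was at 59.5 ± 5.43 and 58.9 ± 0.491 CPM (adjusted p = 0.930), and Lss, which closes the ring to lanosterol, at 47.1 ± 2.79 and 46.9 ± 1.5 CPM (adjusted p = 0.964). The span of Fdft1 overlaps that of Ctsb in RefSeq, and without strand their reads cannot be told apart where exons overlap. The 95% intervals of Fdft1 (-0.17 to 0.14) and Lss (-0.15 to 0.14) leave room for changes of either sign of that size.

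Of the 8 enzymes from lanosterol to cholesterol Cyp51 alone passed. Cyp51 (ENSMUSG00000001467.6), the demethylase that starts the conversion of lanosterol, was at 59.7, 60.2 and 63.8 CPM in WT and at 76.7, 80.8 and 73.8 CPM in KO (log2 fold change 0.33 ± 0.06, 95% interval 0.20 to 0.46, adjusted p = 0.00721). All KO libraries were above all WT libraries, and the gap between the nearest libraries was wider than the range of either group. It no longer passed once WT replicate 2 (adjusted p = 0.0531), KO 1 (0.0601) or KO 2 (0.0712) was left out, with log2 fold changes from 0.29 to 0.33. Msmo1, a methyl oxidase that acts after Cyp51 and the gene with the highest count of this step, was at 64.0, 71.5 and 73.8 CPM in WT and at 81.6, 77.9 and 76.5 CPM in KO (0.17 ± 0.06, adjusted p = 0.148). Sc5d, the late desaturase, was at 36.9, 43.1 and 42.3 CPM in WT and at 49.6, 46.5 and 45.9 CPM in KO (0.21 ± 0.07, adjusted p = 0.120). In both the groups did not overlap, and WT replicate 1 was the lowest library.

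The other 5 enzymes of that step overlapped between the groups. Nsdhl, a dehydrogenase that acts with Msmo1, was at 9.83 ± 0.297 and 11.4 ± 1.35 CPM, and Ebp, the sterol isomerase, at 41.0 ± 1.62 and 43.9 ± 2.15 CPM. Hsd17b7, the sterol ketone reductase, was at 11.2 ± 1.13 and 11.6 ± 0.642 CPM. Dhcr7, the last reductase of one branch of the route, was at 9.91 ± 1.45 and 9.48 ± 1.67 CPM. Tm7sf2, a sterol reductase and the lowest count of the list, was at 3.47 ± 0.631 and 3.34 ± 0.145 CPM, with an interval from -0.46 to 0.35. Its span overlaps that of Vps51 in RefSeq. Those of Mvd, Lss, Insig1 and Elovl6 overlap long non-coding RNA genes, that of Fdps a small nuclear RNA gene, and those of Fdft1, Srebf1, Srebf2, Acly, Scd2 and Fads1 miRNA genes. Adjusted p-values of these 5 genes ran from 0.337 for Nsdhl to 0.900 for Tm7sf2.

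Stard4, which carries cholesterol between membranes and is itself under SREBP, rose from 38.9, 41.1 and 43.0 CPM in WT to 52.6, 46.2 and 51.6 CPM in KO (0.29 ± 0.07, 95% interval 0.13 to 0.45, adjusted p = 0.0373). The groups were apart, with KO replicate 2 the nearest to WT. The call was lost with the replicate number as a block (adjusted p = 0.0633) and on leaving out WT replicate 2 (0.137), KO 1 (0.207), KO 2 (0.0625) or KO 3 (0.174).

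Summed per library, the 20 SREBP sterol genes held 747, 761 and 768 CPM in WT and 862, 859 and 844 CPM in KO, a ratio of means of 1.13. The sums of the groups did not overlap, and the spread within a group was small beside the gap (SD 10.9 in WT and 9.77 in KO). The median log2 fold change of these 20 genes was 0.17, with 15 estimates above 0 and 5 below, and 2 genes past the threshold (10%). Over all 14681 genes tested 7146 estimates were above 0 and 7535 below, and 6.39% passed (3.92% as higher). The sum is set mostly by the genes with high counts. Sums of other pathway lists, named further below, stood apart as well in places. In KO they were higher for the isoprenoid branches (972 to 1014 CPM in WT, 1024 to 1030 in KO) and fatty acid oxidation (602 to 642, 661 to 668). They were lower for the LXR list (773 to 823, 729 to 743) and the list of oxysterol enzymes and receptors (122 to 127, 90.8 to 96.9). Sums of the remaining pathway lists overlapped.

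**Figure D3:**
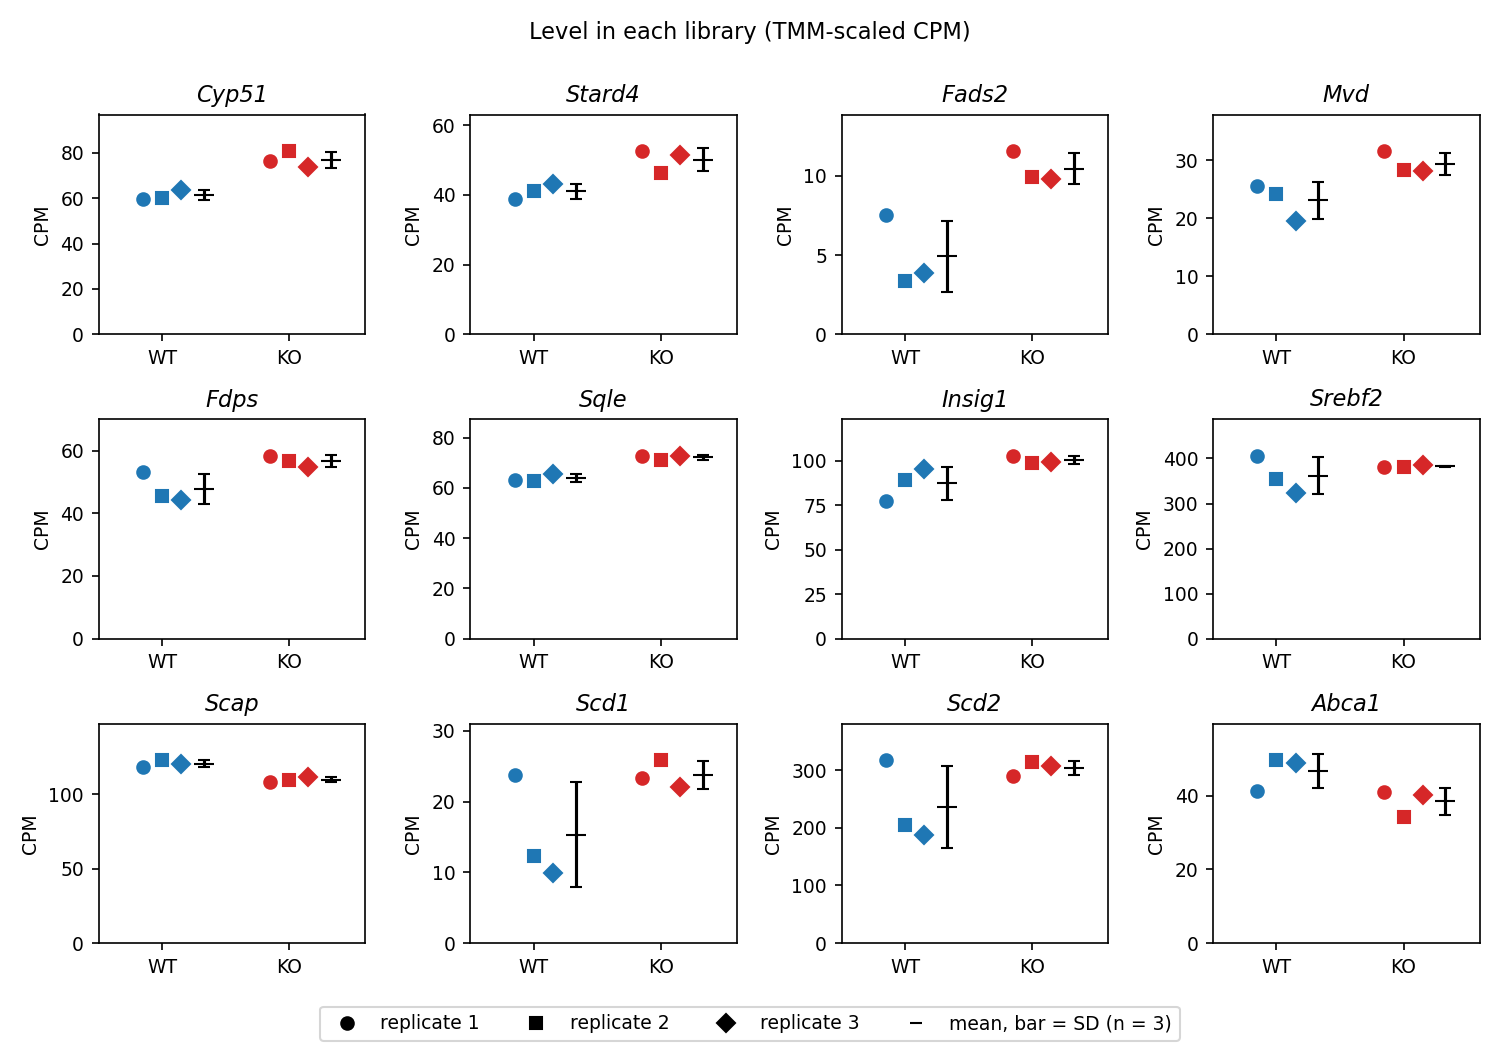
CPM in each library for 12 of the 35 genes, WT in blue and KO in red, with a marker shape for each replicate number and the mean with its SD (n = 3) in black; each axis starts at 0. In Cyp51, Stard4, Sqle and Insig1 all KO libraries lie above all WT libraries. WT replicate 1 lies among the KO libraries in Scd1 and just above them in Scd2.

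The genes of the SREBP switch itself did not pass the threshold. Srebf2 was at 406, 355 and 324 CPM in WT and at 381, 382 and 385 CPM in KO (0.08 ± 0.07, 95% interval -0.07 to 0.23, adjusted p = 0.576), so that the KO libraries fell inside the WT range. Srebf1 was at 190, 173 and 148 CPM in WT and at 175, 181 and 176 CPM in KO (0.06 ± 0.08, adjusted p = 0.734), again inside the WT range. The count of Srebf1 sums all its exons and cannot separate its isoforms, and its span overlaps that of Rai1 in RefSeq. Scap, the escort that senses sterol, was at 118, 123 and 120 CPM in WT and at 108, 109 and 112 CPM in KO (-0.14 ± 0.05, 95% interval -0.24 to -0.03, adjusted p = 0.124). All KO values of Scap stood below all WT values.

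The 2 retention proteins differed in their values. Insig1, which is also an SREBP target, was at 77.2, 89.3 and 95.2 CPM in WT and at 103, 98.9 and 99.1 CPM in KO (0.20 ± 0.07, 95% interval 0.04 to 0.36, adjusted p = 0.134). The groups were apart, and WT replicate 1 was the lowest library. Insig2 was at 39.6, 39.8 and 39.5 CPM in WT and at 40.6, 38.6 and 39.6 CPM in KO (-0.00 ± 0.06, 95% interval -0.14 to 0.13, adjusted p = 0.995). It had the tightest WT values of the list, and the KO libraries lay on both sides of them.

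The core enzymes of fatty acid synthesis overlapped between the groups. Fasn, the synthase that builds palmitate and the gene with the highest count of the list, was at 621, 689 and 661 CPM in WT and at 660, 635 and 681 CPM in KO (0.00 ± 0.05, 95% interval -0.10 to 0.11, adjusted p = 0.977). Acly, which makes cytosolic acetyl-CoA from citrate, was at 420, 364 and 337 CPM in WT and at 370, 358 and 367 CPM in KO (-0.03 ± 0.07, adjusted p = 0.832). Acaca, the carboxylase that makes malonyl-CoA, was at 157 ± 6.09 and 153 ± 2.49 CPM (-0.04 ± 0.05, 95% interval -0.15 to 0.07, adjusted p = 0.700). Its span overlaps that of Tada2a in RefSeq. Summed over the 3 genes the KO over WT ratio of means was 0.990.

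The desaturases and the elongase had estimates above 0 in all 5 cases, and Fads2 passed. Fads2 (ENSMUSG00000024665.9), which starts the desaturation of polyunsaturated fatty acids, was at 7.51, 3.39 and 3.87 CPM in WT and at 11.6, 9.94 and 9.81 CPM in KO (log2 fold change 1.08 ± 0.26, 95% interval 0.50 to 1.66, adjusted p = 0.0387). All KO libraries lay above all WT libraries, and WT replicate 1 was the nearest to them. Without WT replicate 1 the log2 fold change was 1.52 (adjusted p = 7.82e-09), and without any other library the call was lost (adjusted p from 0.0849 to 0.145, log2 fold change 0.88 to 1.12). Fads1, its partner desaturase, was at 33.3, 31.8 and 31.1 CPM in WT and at 41.3, 34.3 and 35.9 CPM in KO (0.21 ± 0.08, adjusted p = 0.160), with the groups apart by a small gap. Elovl6, which lengthens palmitate, was at 8.81 ± 1.61 and 10.5 ± 0.539 CPM (0.26 ± 0.14, adjusted p = 0.333).

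The stearoyl-CoA desaturases, which make oleate and palmitoleate, were spread widely in WT. Scd1 was at 23.8, 12.4 and 9.89 CPM in WT and at 23.3, 25.9 and 22.0 CPM in KO (0.63 ± 0.31, 95% interval -0.11 to 1.37, adjusted p = 0.311). Scd2 was at 317, 205 and 187 CPM in WT and at 290, 314 and 307 CPM in KO (0.36 ± 0.20, 95% interval -0.13 to 0.86, adjusted p = 0.382). In both, WT replicate 1 lay inside or above the KO range while the other 2 WT libraries lay far below. Without WT replicate 1 the log2 fold changes were 1.10 for Scd1 (adjusted p = 3.75e-09) and 0.63 for Scd2 (adjusted p = 6.56e-12). Neither passed on leaving out any other library. There the log2 fold changes went down to 0.39 for Scd1 (adjusted p up to 0.523) and 0.22 for Scd2 (adjusted p up to 0.635).

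On the efflux side no gene passed. Abca1, the transporter that loads cholesterol onto lipoproteins and an LXR target, was at 41.4, 49.7 and 49 CPM in WT and at 41.1, 34.3 and 40.2 CPM in KO (-0.28 ± 0.09, 95% interval -0.48 to -0.08, adjusted p = 0.103). The KO values stood below the WT values, with WT replicate 1 almost level with the highest of them. Abcg1, the partner transporter, was at 13.7, 6.23 and 7.93 CPM in WT and at 7.95, 10.1 and 9.56 CPM in KO (-0.01 ± 0.25, adjusted p = 0.987), with WT replicate 1 the highest library and the other 2 WT libraries the lowest. Nr1h2, which encodes LXR beta, was at 171, 156 and 150 CPM in WT and at 155, 155 and 155 CPM in KO (-0.04 ± 0.06, 95% interval -0.16 to 0.08, adjusted p = 0.756).

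WT replicate 1 stood apart from the other WT libraries in part of the list. It held 2.14 times the mean of the other 2 WT libraries for Scd1, 2.07 times for Fads2, 1.93 times for Abcg1 and 1.62 times for Scd2, and 0.828 times for Idi1 and 0.837 times for Insig1. It was the highest WT library in 20 of the 35 genes and the lowest in 11, against 40.6% and 42.1% of 9688 tested genes of at least 5 CPM. The same library held the most Il17a (104 CPM, against 52.4 and 43.1 CPM). The coefficient of variation had a median of 9.89% over the 35 genes in WT and of 4.36% in KO, against 7.03% and 4.0% over those 9688 genes.

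**Figure D4:**
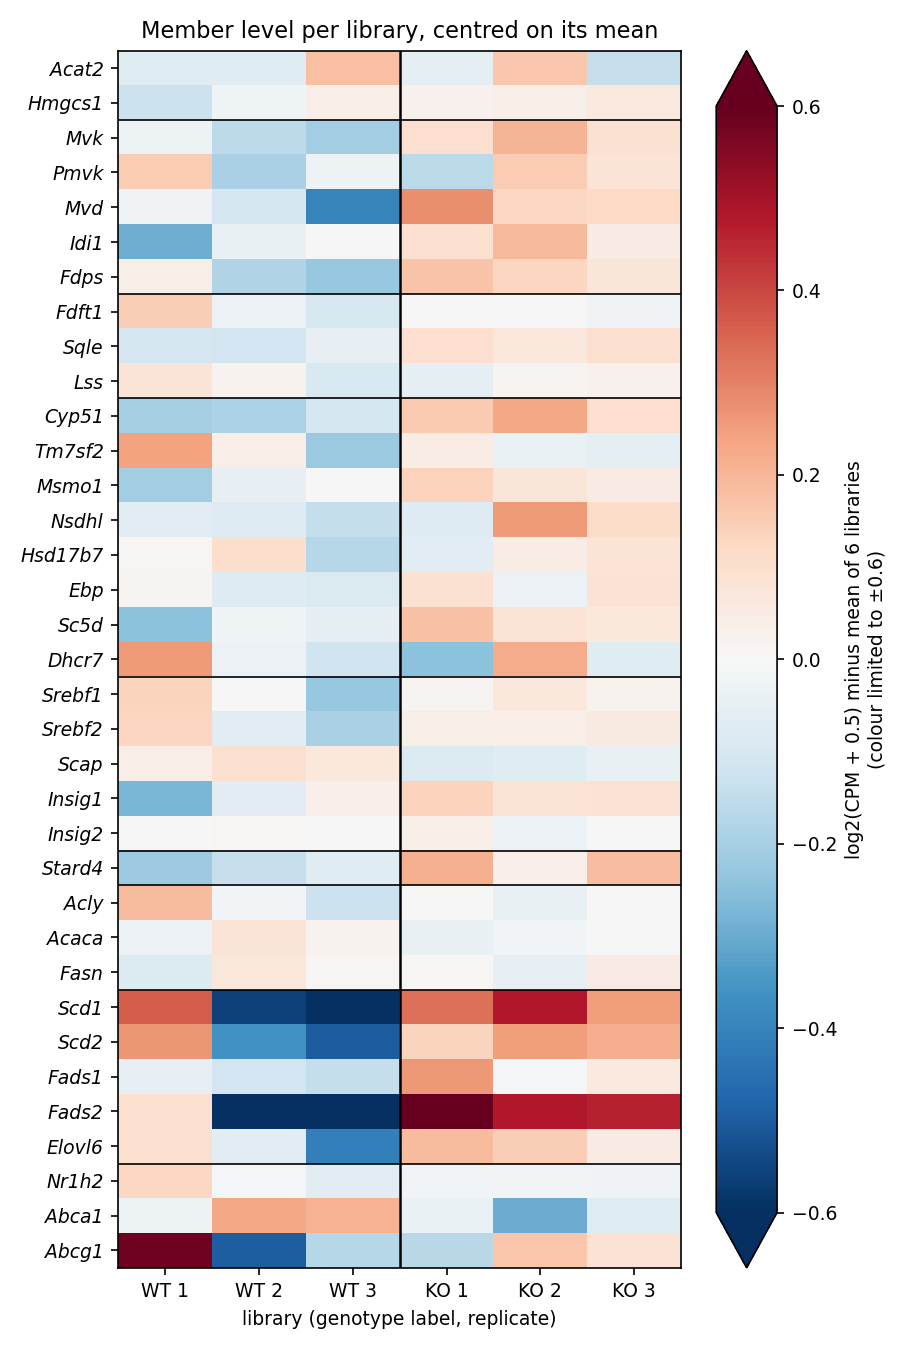
Level of each of the 35 genes in each library, as log2(CPM + 0.5) minus its mean over the 6 libraries, in the order of the pathway steps (horizontal lines), red above and blue below the mean. The 3 KO values lie above and the 3 WT values below the mean for Mvk, Mvd, Idi1, Sqle, Cyp51, Msmo1, Sc5d and Stard4. Some of these WT cells are close to white, such as WT 3 of Idi1 and Msmo1. WT 1 is red where WT 2 and WT 3 are blue for Scd1, Scd2, Fads2 and Abcg1, and also for others, such as Elovl6, Srebf2 and Dhcr7.

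How many of the 35 genes passed moved with the library left out. Without WT replicate 1, 14 passed (40%, against 19.7% of all genes tested in that fit): Mvd, Fdps, Sqle, Cyp51, Srebf1, Srebf2, Stard4, Scd1, Scd2, Fads1, Fads2 and Elovl6 as higher, and Scap and Abca1 as lower. None passed on leaving out WT replicate 2, KO 1 or KO 2, Cyp51 alone passed without KO replicate 3, and Cyp51, Insig1 and Stard4 passed without WT replicate 3. In those last 5 fits between 1.94% and 6.77% of all genes passed.

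**Figure D5:**
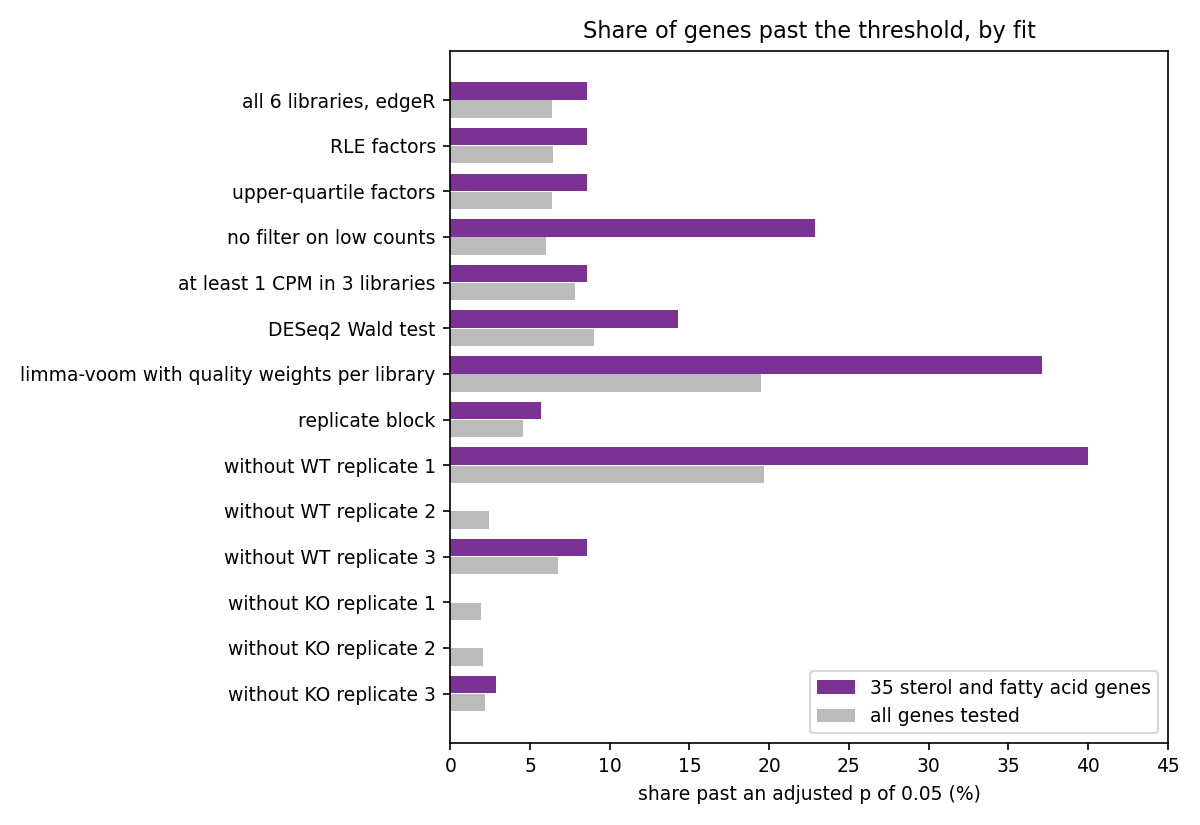
Share of the 35 genes (purple) and of all genes tested (grey) past an adjusted p of 0.05, for the fit on all 6 libraries and for each alternative. The share of the 35 genes runs from 0 on leaving out WT 2, KO 1 or KO 2 to 40% without WT replicate 1, and that of all genes from 1.94% to 19.7%; without a filter on low counts the first is 22.9% and the second 6.01%.

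Genes around the 2 routes were read from lists of 92 genes, of which 88 were tested and 8 passed, 5 as higher and 3 as lower (9.09%, against 6.39% of all genes tested, 3.92% as higher and 2.47% as lower), a share near the background. Among 14 genes of sterol uptake, storage and trafficking Npc1, which exports cholesterol from lysosomes, rose from 107 ± 3.18 to 122 ± 2.97 CPM (0.19 ± 0.05, adjusted p = 0.0426), and Lrp8, a lipoprotein receptor, from 19.2 ± 0.561 to 24.4 ± 1.85 CPM (0.35 ± 0.09, adjusted p = 0.0368). Both calls were lost without any library but WT replicate 1 (adjusted p from 0.0660 to 0.208) and with the replicate number as a block (0.0816 and 0.0666). Of 22 other fatty acid and glyceride genes Dgat2, which makes triglyceride, rose from 11.5, 15.1 and 16.4 CPM to 25.2, 24.5 and 23.3 CPM (0.76 ± 0.12, adjusted p = 0.00361), a call that held in every alternative run (adjusted p up to 0.0422). Me1, the malic enzyme that supplies NADPH, rose at very low counts, from 6 in each WT library to 26, 24 and 26 in KO (2.24 ± 0.45, adjusted p = 0.0136), and it did not pass on leaving out WT replicate 2 or 1 of the KO libraries (0.0600 to 0.0811). Of 16 fatty acid oxidation genes Acadl, an acyl-CoA dehydrogenase, rose from 28.8 ± 1.75 to 36.3 ± 1.52 CPM (0.34 ± 0.07, adjusted p = 0.0231), a call that ended likewise (0.0807 to 0.137). None of 14 genes of the isoprenoid branches (estimates from -0.14 to 0.20) and none of 11 genes of SREBP processing and turnover (-0.08 to 0.25) passed.

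Among receptors of the lists Rora and Rxra fell. Rora, a nuclear receptor that binds sterols, fell from 84.3 ± 9.08 to 63.0 ± 1.30 CPM (-0.42 ± 0.07, adjusted p = 0.00712), lost without any 1 of the KO libraries (0.0520 to 0.0661). Rxra, the partner of LXR, fell from 204 ± 13.4 to 172 ± 2.57 CPM (-0.24 ± 0.06, adjusted p = 0.0246), a call that ended on leaving out WT replicate 2 or any KO replicate (0.109 to 0.148), as 1 of 7 genes on the LXR list. Of the oxysterol enzymes 4 were barely counted, and none of the 4 was tested. Cyp7b1 and Hsd3b7 had 0 counts in all 6 libraries, which allows up to 3 counts in each. Ch25h had 0 to 6 counts and Cyp27a1 0 to 10. Sult2b1, on the same list, was counted, at 4.31, 4.33 and 3.93 CPM in WT and at 6.30, 5.93 and 5.08 CPM in KO. Its groups were apart, and it did not pass (0.46 ± 0.15, adjusted p = 0.0965).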

How the data were processed

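RNA-seq was analysed for 6 mouse Th17 libraries, 3 WT and 3 KO by title and genotype label, and the other 7 of 13 samples, which hold chromatin assays, were not used. The authors deposited raw counts per gene, made with featureCounts 2.0.1 and GENCODE vM33, exons summed by gene, with no strand, multi-mapping or paired-end option, per the file headers (for KO replicate 1 the header command lacks its option names). Aligner version: not given in the sources used here, and likewise the genome build. The deposited values of WT replicate 2 are entered as other in the record of units kept here, and are raw counts like the rest. Of low counts (1 to 20) 65.6% to 67.7% were even, against 48.8% to 50.9% of counts of at least 1000; the cause was not tested. Gene IDs were matched to symbols without version (51948 of 56941, 91.2%).

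The comparison of KO with WT used edgeR 4.0.16 under R 4.3.3: default filter on low counts, TMM, robust quasi-likelihood F-test, Benjamini-Hochberg over 14681 genes, threshold 0.05. The SE was derived from the F statistic (size of the log2 fold change divided by the root of F), and the 95% interval uses the t quantile. CPM values use TMM library sizes. Levels are not compared between genes, since no exon length was used here. Alternatives were RLE and upper-quartile factors, no filter and a filter of 1 CPM in 3 libraries, DESeq2 1.42.0, limma 3.58.1 voom with quality weights, the replicate number as a block, and leaving out each library. The test was run on simulated counts, where the share of false calls was above the nominal level and most of the smallest fold changes were missed. Every member is named; values per library are given for genes past the threshold, the SREBP and LXR regulators and the gene with the most counts of each step, and for other members after their values were seen; of the other lists each gene past the threshold, up to 4 a list, is named, except 1 that is counted but not reported here. The members and lists were chosen with earlier results of these data known.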

Additional observations from a re-analysis of the deposited data

How the results depend on the processing

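With RLE factors, upper-quartile factors or the filter of 1 CPM in 3 libraries the same 3 genes passed, Cyp51, Stard4 and Fads2. Without a filter on low counts 8 of the 35 passed (22.9%) and 1568 genes in all (6.01% of those tested). With DESeq2's Wald test 5 passed (14.3%, adding Mvd and Fdps), against 9.03% of all genes. With limma-voom and quality weights 13 passed, with a median log2 fold change of 0.14 over the 35 genes, 21 of the other pathway genes and 2862 genes in all (37.1% of the 35 and 19.5% of all genes). With the replicate number as a block 2 of the 35 passed, Cyp51 and Fads2, 6 other pathway genes and 671 genes in all (5.71% of the 35 and 4.57% of all genes). Same-numbered libraries share only a number (correlations of their deviations from the group means -0.04, -0.04 and 0.03). No library correlated best with its own number. Without a library, from 0 to 14 of the 35 genes passed, from 1 to 23 of the other pathway genes and from 295 to 2961 genes in all (1.94% to 19.7%), and the median of the 35 genes ran from 0.0726 to 0.139; the highest value of each was without WT replicate 1. The SREBP sterol genes past the threshold were 1 with the block, 4 with DESeq2, 6 without a filter, 7 with quality weights and 0 to 5 without a library, and are to be read against those shares of all genes.

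Estimates near 0 changed sign in places, and of these genes only Srebf1 passed the threshold in any fit. It passed without WT replicate 1 with its sign kept (0.144, adjusted p = 0.0452). Its sign changed without WT replicate 3, where it did not pass (-0.0348, adjusted p = 0.779). With quality weights the values were 0.0139 for Acat2, 0.0259 for Fdft1, -0.0119 for Hsd17b7, 0.00739 for Dhcr7, 0.0062 for Acly, -0.0419 for Fasn and 0.383 for Abcg1. Fasn was -5.93e-05 without a filter and -0.0015 with the stricter one, and Abcg1 0.0556 with the block. Without a library the range was -0.125 to 0.0716 for Acat2, -0.0339 to 0.146 for Pmvk, -0.0669 to 0.0612 for Fdft1, -0.0533 to 0.0316 for Lss, -0.185 to 0.0806 for Tm7sf2, -0.034 to 0.109 for Hsd17b7, -0.212 to 0.0643 for Dhcr7, -0.0348 to 0.144 for Srebf1, -0.0225 to 0.0128 for Insig2, -0.105 to 0.0587 for Acly, -0.0356 to 0.0391 for Fasn, -0.077 to 0.0183 for Nr1h2 and -0.227 to 0.378 for Abcg1. The cause of these shifts was not tested. Fits without a library leave 2 libraries in one group. Depth limits Tm7sf2 most by count, and the spread between WT libraries limits Scd1, Scd2, Fads2 and Abcg1.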
